A study of Homo sapiens with 18 samples.

Results

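MSTO-211H cells, an established line of human malignant mesothelioma, were compared after 24 h with piroxicam alone and after 24 h without treatment. The comparison uses the 3 arrays titled piroxicam 24h and the 2 titled untreated 24h, that is 5 of the 18 arrays of the series, and all their probe sets. Piroxicam (P) was given at 760 µM, without cisplatin (C), to cells seeded in complete growth medium on the day before. The control cells are described only as untreated, and no vehicle control is described, so the drug and the solution that carried it cannot be told apart. The other arrays are P, C and P/C (piroxicam with cisplatin) at 8 h or 24 h and untreated cells at 8 h. Their signals are compared below only where P at 24 h is set against them. They also enter the filter on probe sets and the shared estimate of spread behind every p value. RNA was hybridised to HGU133A arrays, on which 1 gene is read by 1 or more probe sets, and each value is a log2 signal from the authors' own background correction and normalization. The study calls its replicates biological without saying which cultures share a number. The p values therefore measure the spread between arrays of 1 group, pooled over all 8 groups of the series.

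Piroxicam belongs to the non-steroidal anti-inflammatory drugs and blocks cyclooxygenases, the enzymes that make prostaglandins from arachidonic acid. A human cell that lacks amino acids or is otherwise stressed can activate the integrated stress response, in which the transcription factor ATF4 switches on genes that import and make amino acids and charge transfer RNAs. A cell that leaves the division cycle lowers the genes that copy DNA, many of them driven by E2F factors, and those that carry out mitosis, many of them repressed through the DREAM complex at a promoter element called CHR. These are background facts and were not measured here.

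Both genes that encode the targets of the drug were near the floor of the arrays. PTGS1, the constitutive cyclooxygenase, had log2 signals of 2.18, 2.25 and 1.91 in P cells, against 2.19 and 2.38 in untreated cells. For PTGS2, the inducible cyclooxygenase, the signals were 1.94, 2.23 and 2.01 in P cells, against 2.06 and 1.82 in untreated cells. Both are far below 6.64, the log2 of a signal of 100, and neither was tested. Of 23 genes on the array for prostaglandin synthesis and its receptors, 2 were tested, the synthase cochaperone PTGES3 and the prostaglandin reductase CBR1, and neither was called.

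Tests were run on probe sets whose interquartile range over the 18 arrays reached 0.25 and whose signal reached 100 on 25% of them or more, which kept 3057 of 22283 probe sets for 2203 genes. A call needed both an adjusted p (limma, Benjamini-Hochberg) no higher than 0.05 and a change of 1 or more on the log2 scale in either direction. The standard error (SE) of each log2 fold change is from the same fit. Its spread is pooled over all 18 arrays, so groups outside a comparison can widen or narrow it. With P at 24 h 445 probe sets were called, which is 14.6% of those tested, 96 higher (3.14%) and 349 lower (11.4%) than in untreated cells. By gene, each read by its tested probe set with the highest mean, 303 of 2203 were called (13.8%), 72 higher (3.27%) and 231 lower (10.5%). Without the filter on dim and steady probe sets 783 of 22215 were called (3.52%), and by gene 130 higher (1.09%) and 320 lower (2.67%) of 11963. In 61.6% of the tested probe sets the 3 P arrays all lay on 1 side of both untreated arrays. The tested probe sets as a whole lay lower in P cells, with a median log2 fold change of −0.22, and counts of genes in each direction below are read against those shares. Of the 349 lower probe sets 199 had a mean signal under 100 in P cells, and of the 96 higher ones 42 were under 100 in untreated cells, where a log2 fold change can depend strongly on the background correction. A setting that removes the overall shift moves this balance. With each array centred on the median of the tested probe sets, an alternative chosen after the data were seen, 172 were higher and 223 lower.

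**Figure D1:**
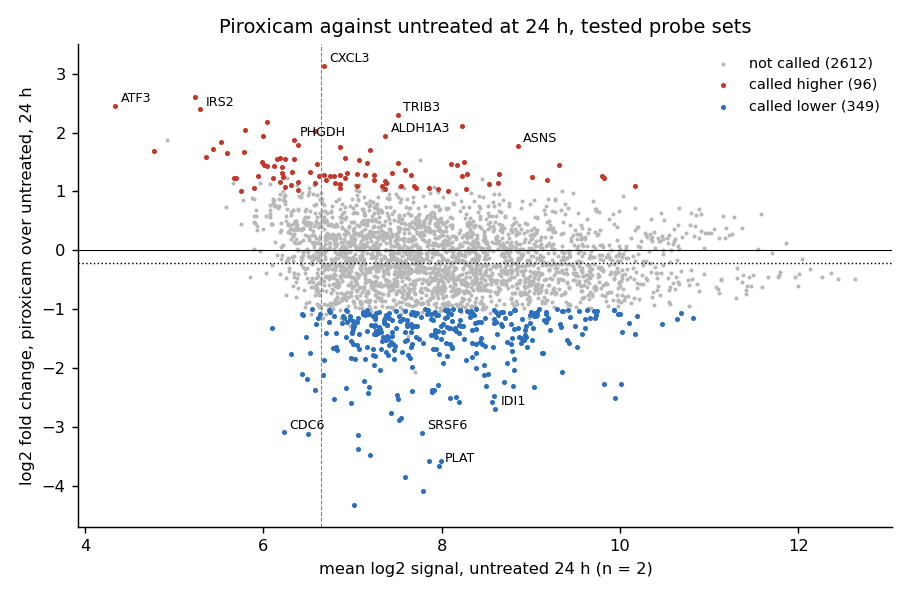
Log2 fold change of P over untreated cells at 24 h (y axis) against the mean log2 signal of untreated cells (x axis), 1 point for each of the 3057 tested probe sets. The dotted line is the median of −0.22, the dashed line a signal of 100, and the 349 points called lower outnumber the 96 called higher.

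For many of the genes named below, among them AARS1, CXCL3, CDC6 and MAD2L1, the direction computed here from the deposited signals and the labels is opposite to the sign printed for piroxicam in the study's gene tables. In these cells the study lists its array values as borne out by real-time PCR for BIRC5 and DLG7 (DLGAP5), but not for MAD2L1. It prints a rise with piroxicam for each. Called probe sets of BIRC5 and DLGAP5 had log2 fold changes of −1.51 and −1.16 here. These genes do not show that the signs are opposite throughout. The cause of the opposite signs was not tested.

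The 3 P arrays resembled each other more than the untreated arrays did. Pairs of P arrays correlated at 0.953 to 0.971 over the tested probe sets and differed by at least 1 on the log2 scale in 41 to 79 of them. The pair of untreated arrays correlated at 0.936 and differed that much in 108. Untreated replicate 2 was the lower of the pair in 85 of the 96 probe sets called higher, with a median difference of 0.62, so the rises rest more on that array than the falls do. Without it 19 of the 96 and 207 of the 349 were still called, although all 445 kept their direction, and the median log2 fold change of the 96 was 1.01 in place of 1.30. For the 349 lower probe sets the medians were −1.32 without it and −1.33 with it. Among the genes described below, the calls lost without it were the rises of TRIB3, ATF3, CEBPB, ASNS, PHGDH, PSAT1, SLC3A2, SLC7A5, AARS1, WARS1, SARS1, CXCL2, TXNIP, KLF4, JUND, BTG1, GDF15, ALDH1A3, MT1X, RAD50, SQSTM1, DUSP1, CIRBP, SEL1L, NDUFV1, VEGFA, MXI1 and the brighter probe set of PAFAH1B1, and the falls of KIF14, PCNA, H2AX, EBP, MSMO1, FDPS, HSPE1, MANF, ATP5MG and FTSJ3.

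Markers of leukocytes and red cells (11 genes on the array) and of stroma and endothelium (12) had no gene at a mean signal of 100 in either group. Of 16 mesothelial markers on the array 4 reached it in both, the keratin genes KRT8 and KRT18, the filament gene VIM and the cadherin gene CDH2, while the mesothelioma antigen MSLN stood at 2.18 in P cells and 2.33 in untreated cells and the calretinin gene CALB2 at 3.43 and 3.22.

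Most of the tested factors of the integrated stress response were higher in P cells, with 7 log2 fold changes above 0 and 1 below it, at −0.87. Of 8 tested members 5 were called higher and none lower, with a median log2 fold change of 1.15, while over all genes tested the median was −0.20. TRIB3, a pseudokinase induced by ATF4 that restrains it, had log2 signals of 10.002, 9.78 and 9.67 in P cells, against 7.92 and 7.10 in untreated cells. All P arrays lay above both untreated arrays, and the log2 fold change was 2.30 (SE 0.49, adjusted p = 0.00361). ATF3, a stress-induced repressor, was dim, at 7.17, 6.86 and 6.35 in P cells, against 4.67 and 4.01 in untreated cells. Its log2 fold change of 2.45 (SE 0.87, adjusted p = 0.0446) only just passed, and the call was lost when any 1 of the 5 arrays was left out. CEBPG, a partner of ATF4 on amino acid genes, stood at 7.68, 7.47 and 7.21 in P cells, against 5.97 and 5.60 in untreated cells. Its rise of 1.67 (SE 0.29, adjusted p = 0.00119) was among the most stable here and held without any 1 array. The related factors ATF5 (1.15, SE 0.33, adjusted p = 0.017) and CEBPB (1.14, SE 0.29, adjusted p = 0.00971) were called as well.

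The enzymes that ATF4 drives in human cells rose in part. Over 3 lists, these were 3 of 10 tested genes of amino acid synthesis, 2 of 5 amino acid transporters and 3 of 9 aminoacyl-tRNA synthetases, and none of the 24 tested genes was called lower. Their median log2 fold changes were 0.55, 0.71 and 0.71. ASNS, which makes asparagine, had signals of 10.66, 10.63 and 10.59 in P cells, against 9.22 and 8.49 in untreated cells (log2 fold change 1.77, SE 0.38, adjusted p = 0.00366). PHGDH, the first enzyme of serine synthesis, was at 8.18, 8.22 and 8.26 in P cells, against 6.70 and 5.99 in untreated cells (1.87, SE 0.37, adjusted p = 0.00217). In both genes the P arrays were nearly level, and untreated replicate 2 was the lower of the untreated arrays. PSAT1, the next enzyme of that pathway, rose by 1.30 (SE 0.31, adjusted p = 0.00716).

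Among the transporters SLC3A2, the heavy chain shared by several amino acid exchangers, stood at 9.16, 8.89 and 8.93 in P cells, against 8.11 and 6.91 in untreated cells (1.48, SE 0.29, adjusted p = 0.00228). Its light chain SLC7A5, which carries large neutral amino acids, was called at the edge (1.29, SE 0.47, adjusted p = 0.049). The cystine carrier SLC7A11 was bright in all arrays and was not called (0.71, adjusted p = 0.0633). Of the synthetases, which load amino acids onto transfer RNA, AARS1 had signals of 10.72, 10.65 and 10.92 in P cells, against 9.88 and 8.75 in untreated cells (1.45, SE 0.28, adjusted p = 0.00192). WARS1 (1.30, adjusted p = 0.00448) and SARS1 (1.24, adjusted p = 0.00161) rose too. The neutral amino acid transporter SLC6A15, outside these lists, rose by 1.84 (SE 0.32, adjusted p = 0.00122), at 7.39, 7.17 and 7.54 in P cells and 5.30 and 5.75 in untreated cells. Without untreated replicate 2 none of the 8 calls in the 3 lists remained, and 2 of the 5 among the factors did.

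Promoter sequence was read for these genes because many ATF4 targets carry a C/EBP-ATF response element (CARE), searched here as TGATGNAA on both strands from 250 bases before to 50 after the RefSeq start (GRCh38.p14). It was found in 4 of the 13 promoters of the called members of the 4 lists (30.8%) and in 4 of 13 with a promoter among the tested members that were not called (30.8%), while 3.67% of 27305 promoters held it and 1.84% of those of the genes tested. The share was thus the same in members with and without a call. Shown in capitals is the match in 3 of the called genes, with the surrounding bases, for ASNS at chr7:97872429-97872516 (minus strand), for ATF3 at chr1:212565176-212565263 (plus strand) and for AARS1 at chr16:70289646-70289733 (minus strand, match in reverse orientation).
ASNS: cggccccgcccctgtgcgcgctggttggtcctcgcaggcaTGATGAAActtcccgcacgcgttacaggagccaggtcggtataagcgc
ATF3: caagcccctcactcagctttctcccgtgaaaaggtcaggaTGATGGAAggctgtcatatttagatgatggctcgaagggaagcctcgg
AARS1: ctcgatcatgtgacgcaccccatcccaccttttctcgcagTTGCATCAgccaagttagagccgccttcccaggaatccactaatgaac

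The largest rise among all genes tested was in a chemokine. CXCL3, which attracts neutrophils, had log2 signals of 10.01, 9.66 and 9.76 in P cells, against 6.81 and 6.54 in untreated cells. The groups were far apart and each was tight, and the rise of 3.13 on the log2 scale (SE 0.58, adjusted p = 0.00158) held without any 1 array. Its neighbour in function CXCL2 rose by 1.22 (SE 0.29, adjusted p = 0.00704), while CXCL8, the related neutrophil chemokine, was bright and differed little, at 9.83, 9.42 and 9.83 in P cells and 9.68 and 9.58 in untreated cells (0.07, adjusted p = 0.875). These were the only calls among 8 tested chemokine and cytokine genes.

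Genes of nutrient stress and insulin signalling followed, with 4 of 13 tested members higher, none lower and a median of 0.77. IRS2, an adaptor of the insulin receptor, was at 7.99, 6.93 and 8.15 in P cells, against 5.10 and 5.48 in untreated cells (2.40, SE 0.52, adjusted p = 0.00413), and kept its call without any 1 array. TXNIP, an inhibitor of thioredoxin and of glucose uptake, rose by 1.75 (SE 0.50, adjusted p = 0.0183) and both of its probe sets were called. KLF4, a transcription factor that restrains proliferation in many epithelia, was dim and called at the edge (1.68, SE 0.58, adjusted p = 0.0413), and the antiproliferative gene BTG1 rose by 1.12 (SE 0.30, adjusted p = 0.0123). The stress cytokine GDF15 had signals of 10.49, 10.27 and 10.25 in P cells, against 8.89 and 7.56 in untreated cells (2.11, SE 0.57, adjusted p = 0.0129). ALDH1A3, which makes retinoic acid from retinal, stood at 9.45, 9.25 and 9.24 in P cells, against 7.65 and 7.09 in untreated cells (1.95, SE 0.50, adjusted p = 0.00985).

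The metallothionein MT1X, which binds zinc and copper, rose by 1.45 (SE 0.49, adjusted p = 0.0385), and the other tested metallothioneins MT2A (1.00, adjusted p = 0.0599) and MT1H (1.15, adjusted p = 0.0611) were not called. Near-identical metallothionein genes can share probes, so these are uncertain. Of 14 tested genes of DNA damage sensing and repair 2 were called higher and 5 lower, with a median of −0.49. XPC, which recognises DNA damage in nucleotide excision repair, was at 7.56, 7.64 and 7.35 in P cells and 6.21 and 6.21 in untreated cells (1.31, SE 0.29, adjusted p = 0.00467). RAD50, a subunit of the complex that tethers broken DNA ends, rose by 1.56 (SE 0.34, adjusted p = 0.00384). Among the 5 that fell were FANCI of the Fanconi anaemia pathway (−1.53, SE 0.28, adjusted p = 0.00158) and the histone gene H2AX (−1.50). SQSTM1, a receptor of selective autophagy, rose by 1.08 (SE 0.26, adjusted p = 0.0075), the only call among 10 tested NRF2 and redox genes. Of 13 tested genes of the AP-1, immediate early and ERK feedback list 2 rose and 2 fell. DUSP1, a phosphatase that switches off MAP kinases, rose by 1.27 (SE 0.27, adjusted p = 0.00395) and the AP-1 subunit JUND by 1.56 (SE 0.48, adjusted p = 0.0264), while PHLDA2 (−1.53) and RGS4 (−3.12) fell.

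**Figure D2:**
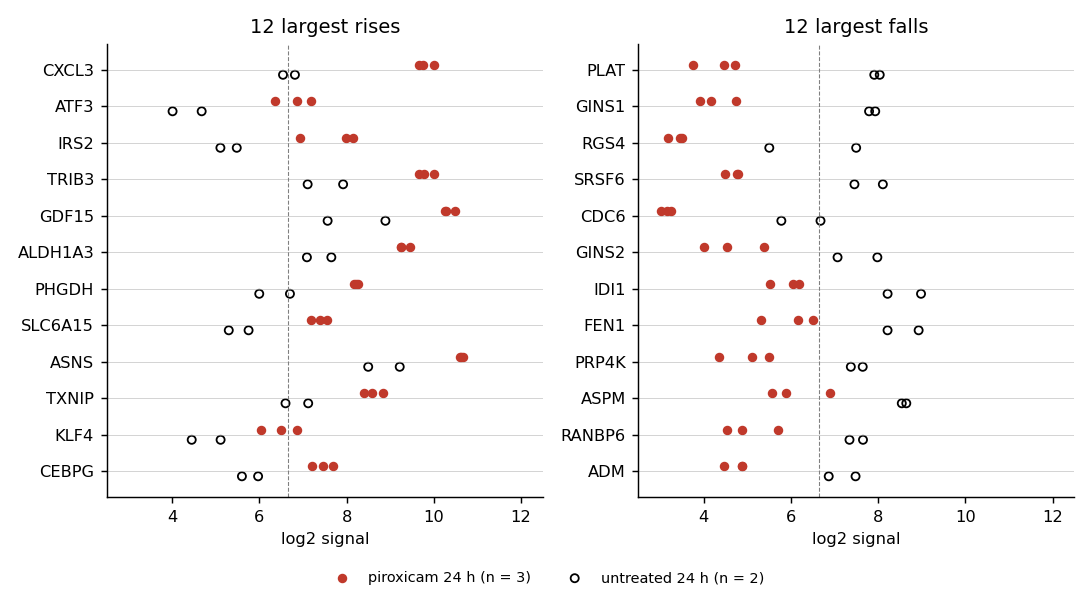
Log2 signal of each array (x axis) for the 12 genes with the largest called rises (left) and falls (right), with the 3 P arrays as filled points above the 2 untreated arrays as open points. In all 24 genes the groups do not overlap, as the choice of genes required; CXCL3 stands about 3 log2 units higher in P cells and PLAT over 3 lower, and the dashed line is a signal of 100.

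Many of the genes that copy DNA were lower in P cells. Of 33 tested genes for DNA replication and nucleotide synthesis 18 were called lower and none higher, with a median log2 fold change of −1.08, and 29 of the 33 were below 0. GINS1, a subunit of the replicative helicase, had log2 signals of 3.92, 4.74 and 4.15 in P cells, against 7.79 and 7.93 in untreated cells (−3.59, SE 0.44, adjusted p = 0.000127). CDC6, which loads that helicase at origins, was at 3.25, 3.15 and 3.01 in P cells, against 5.78 and 6.68 in untreated cells (−3.09, SE 0.53, adjusted p = 0.00108). Both were near the floor of the arrays in P cells, so their fold changes rest on background values. GINS2, another subunit of that helicase, was at 4.0, 5.39 and 4.53 in P cells, against 7.07 and 7.98 in untreated cells (−2.89, SE 0.40, adjusted p = 0.000373).

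Members of the list that were brighter in P cells fell as well, although FEN1, MCM4 and RFC5 still had mean signals under 100 there. FEN1, the nuclease that trims Okazaki fragments, was at 5.30, 6.51 and 6.17 in P cells and 8.21 and 8.93 in untreated cells (−2.58, SE 0.39, adjusted p = 0.000622). MCM4, a helicase subunit, was at 5.38, 5.52 and 5.68 in P cells and 7.72 and 8.07 in untreated cells (−2.37, SE 0.30, adjusted p = 0.000157), and its other tested probe set gave −2.39. PCNA, the sliding clamp of the polymerases, fell least of the called members, at 8.63, 9.05 and 8.42 in P cells and 9.69 and 9.80 in untreated cells (−1.04, SE 0.25, adjusted p = 0.00651). RFC5, a subunit of the clamp loader, fell by 2.13 (SE 0.24, adjusted p = 7.82e-05). Without untreated replicate 2, 14 of the 33 were called lower.

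The promoters of the called replication genes were searched for 2 spellings of the E2F site, TTTCCCGC and TTTGGCGC. A match was found in 7 of 16 promoters (43.8%), in 2 of 13 of the tested members that were not called (15.4%), in 4.26% of the genes tested and in 2.31% of all promoters. The 3 genes with the largest falls of the list each hold 1, shown in capitals, at chr20:25407638-25407722 (plus strand) for GINS1, chr17:40287846-40287928 (plus strand) for CDC6 and chr16:85688938-85689025 (minus strand) for GINS2. The matches of GINS1 and GINS2 read in the reverse orientation.
GINS1: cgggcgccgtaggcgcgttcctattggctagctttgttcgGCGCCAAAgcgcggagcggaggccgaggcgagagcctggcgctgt
CDC6: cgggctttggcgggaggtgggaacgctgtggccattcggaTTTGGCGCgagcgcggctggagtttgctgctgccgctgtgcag
GINS2: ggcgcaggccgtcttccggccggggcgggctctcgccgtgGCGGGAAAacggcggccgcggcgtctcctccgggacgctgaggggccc

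Of 42 tested mitotic genes 23 were called lower and none higher. All 42 log2 fold changes were below 0, with a median log2 fold change of −1.05 and a range of −2.47 to −0.21. ASPM, which organises spindle poles, was at 6.89, 5.57 and 5.90 in P cells, against 8.54 and 8.64 in untreated cells (−2.47, SE 0.42, adjusted p = 0.00104). NDC80, the kinetochore protein that binds microtubules, was at 5.47, 5.01 and 5.35 in P cells, against 7.55 and 7.07 in untreated cells (−2.03, SE 0.36, adjusted p = 0.00127). MAD2L1, a spindle checkpoint protein, remained well above the signal limit in both groups, at 8.17, 7.89 and 7.57 in P cells and 9.44 and 9.37 in untreated cells (−1.53, SE 0.25, adjusted p = 0.001). The motor genes KIF14 (−1.66, adjusted p = 0.00693) and KIF20A (−1.57, adjusted p = 0.00367) fell too. The count was 15 with each array centred on the tested probe sets and 11 without untreated replicate 2.

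The CHR element, searched as TTTGAA, was in 16 of 20 promoters of the called mitotic genes (80%) and in 8 of 13 of the tested mitotic genes that were not called (61.5%). It was in 15.4% of all promoters and in 11.1% of the genes tested. The CCAAT box, often found beside it, was in 14 of the 20 (70%) and in 10 of the 13 not called (76.9%). It was in 35.7% of all promoters and in 39.4% of the genes tested. Shown with the match in capitals are the 3 mitotic genes whose arrays are given above, ASPM at chr1:197146735-197146822 (minus strand), NDC80 at chr18:2571514-2571601 (plus strand) and MAD2L1 at chr4:120066799-120066864 (minus strand). The matches of ASPM and NDC80 read in the reverse orientation.
ASPM: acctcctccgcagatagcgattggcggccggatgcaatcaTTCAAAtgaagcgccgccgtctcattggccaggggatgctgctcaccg
NDC80: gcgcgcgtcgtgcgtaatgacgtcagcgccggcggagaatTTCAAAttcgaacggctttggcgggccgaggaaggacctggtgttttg
MAD2L1: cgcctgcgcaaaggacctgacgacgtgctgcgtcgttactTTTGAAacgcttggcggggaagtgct

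Regulators of the entry into the cycle were measured on few genes, with 7 tested and 2 called. SKP2, which directs the breakdown of cycle inhibitors, was at 7.07, 6.89 and 7.63 in P cells and 8.57 and 8.99 in untreated cells (−1.59, SE 0.27, adjusted p = 0.00106). CCND1, the cyclin that starts G1, fell by 1.02 (SE 0.28, adjusted p = 0.0145). CDKN1A, which encodes the cycle inhibitor p21, was at 9.82, 9.62 and 9.55 in P cells, against 8.72 and 8.20 in untreated cells. All P arrays lay above both untreated arrays, yet the log2 fold change of 1.20 (SE 0.52, adjusted p = 0.0951) was not called. The pooled SE includes groups outside this comparison. The SD of CDKN1A at 24 h was 0.14 in P cells, 0.37 in untreated cells and 1.45 in C cells. Of 11 tested p53 target genes 2 were called higher, GDF15 and XPC (18.2%, against 3.27% of all genes tested). Log2 fold changes were above 0 in 10 of the 11, with a median of 0.27, against −0.20 over all genes tested. Of 9 tested apoptosis genes none was called in either direction. In that last list the stress-induced TNFRSF10B, a death receptor, was at 0.65 (adjusted p = 0.0587) and MCL1, a survival protein, −0.71 (adjusted p = 0.0318), the last short of the fold limit.

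Of the 8 tested genes of cholesterol and fatty acid synthesis 5 fell, and all 8 were below 0, with a median of −1.07. IDI1, an enzyme of the isoprenoid chain, was at 6.17, 5.51 and 6.03 in P cells, against 8.21 and 8.98 in untreated cells (−2.69, SE 0.49, adjusted p = 0.00151), and both of its probe sets were called. SCD, which desaturates fatty acids, was at 8.20, 7.88 and 7.58 in P cells, against 9.77 and 9.27 in untreated cells (−1.64, SE 0.34, adjusted p = 0.00321). The sterol enzymes EBP (−1.15), MSMO1 (−1.03) and FDPS (−1.03) lay near the fold limit, and 2 members of the list were called with each array centred on the tested probe sets.

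Larger falls than those of any gene read by its brightest tested probe set were called in dimmer probe sets of SUB1 (−4.33) and PSMD12 (−3.86). Another was called in a probe set without a single gene symbol (−4.10), a kind that no list or ranking of genes here includes. With each gene read by its brightest tested probe set, the largest fall was in PLAT, tissue plasminogen activator. PLAT is a secreted protease that starts the dissolution of fibrin. It had log2 signals of 4.72, 3.76 and 4.45 in P cells, against 8.03 and 7.91 in untreated cells (−3.66, SE 0.65, adjusted p = 0.00136). RGS4, which shortens signals of G protein-coupled receptors, was at 3.50, 3.46 and 3.17 in P cells, against 5.50 and 7.49 in untreated cells. The untreated arrays were almost 2 log2 units apart, and the fall of 3.12 (SE 0.49, adjusted p = 0.000652) was 2.13 without the higher of them. RANBP6, a nuclear import receptor of the importin family, fell by 2.46 (SE 0.38, adjusted p = 0.000652). ADM, a vasodilator peptide induced by low oxygen, fell by 2.43 (SE 0.54, adjusted p = 0.00473), whereas 2 other tested genes of the glycolysis and hypoxia list, VEGFA (1.08, adjusted p = 0.0297) and MXI1 (1.11, adjusted p = 0.0158), rose.

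In a list of SR, hnRNP and other splicing or RNA-binding factors, 6 of 38 tested members fell and 1 rose, with a median of −0.60. SRSF6, which promotes exon inclusion, was at 4.79, 4.77 and 4.48 in P cells, against 7.45 and 8.11 in untreated cells (−3.10, SE 0.48, adjusted p = 0.000652). The others called lower that are named by rule were HNRNPA3 (−1.58), SF3A3 (−1.41) and TRA2B (−1.24), and the cold-inducible RNA-binding gene CIRBP rose by 1.23 (SE 0.43, adjusted p = 0.0427). PRP4K, a kinase of the spliceosome, fell by 2.52 (SE 0.43, adjusted p = 0.00113). Of 22 tested translation factors 3 fell (13.6%), near the 10.5% of all genes tested, and the median was 0.05. EIF2S1, the subunit whose phosphorylation starts the integrated stress response, was among them (−1.27, SE 0.24, adjusted p = 0.00186). Of 20 tested cytosolic and mitochondrial chaperones 3 fell (15%, also not far from that share), CHORDC1 (−1.91), DNAJA1 (−1.26) and HSPE1 (−1.16). Their list had a median of −0.56.

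Several systems had few or no calls. None of 22 tested proteasome genes was called when each was read by its brightest tested probe set, with a median of −0.38. Dimmer probe sets of the proteasome genes PSMD12 (−3.86) and PSMC2 (−2.76) were nonetheless called lower. Of 29 tested genes of oxidative phosphorylation 1 rose, NDUFV1 (1.05), and 1 fell, ATP5MG (−1.17). In the unfolded protein response of the endoplasmic reticulum, which can also activate ATF4 in human cells, 1 of 12 tested genes rose, SEL1L (1.31, SE 0.30, adjusted p = 0.00599), and 1 fell, MANF (−1.25, SE 0.29, adjusted p = 0.00599). The main chaperone of that compartment, HSPA5, varied too little over the arrays to be tested and stood at 11.36, 10.68 and 11.22 in P cells and 11.18 and 10.94 in untreated cells. Ribosomal protein genes were bright and steady: 40 of 41 on the array had a mean signal of at least 100 in each group and 1 passed the filter, without a call. RPS23 for example stood at 12.76 ± 0.08 in P cells (SD, n = 3) and 12.77 ± 0.06 in untreated cells (SD, n = 2).

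**Figure D3:**
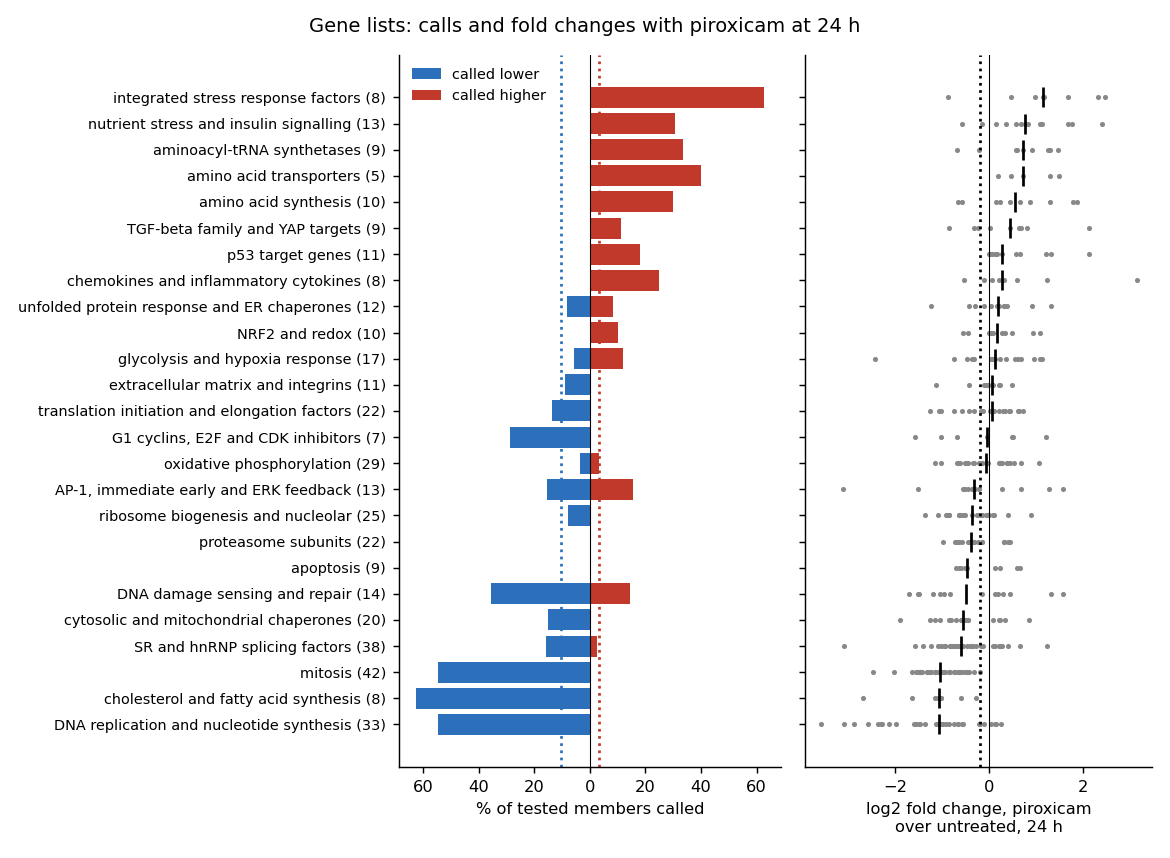
Gene lists with at least 5 tested members (number in brackets), with the percent of members called lower and higher (left) and each member's log2 fold change of P over untreated cells (right, grey points, median as a black bar). Dotted lines mark all genes tested, at 10.5% lower, 3.27% higher and a median of −0.20; replication, mitosis and cholesterol lie at the lower end and the integrated stress response factors at the upper end.

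Probe sets of 1 gene did not always show the same change. Of 112 genes with at least 1 called probe set and another tested one, 38 had every tested probe set called and 47 had a probe set that changed by less than 50% of the largest called change, in 16 of them in the opposite direction. In 36 of the 47 the larger change was in the probe set with the lower signal in untreated cells, and in 42 it was a fall. SUB1, a transcriptional coactivator, had a probe set at 3.11, 2.42 and 2.52 in P cells, against 7.21 and 6.81 in untreated cells (−4.33, SE 0.45, adjusted p = 7.22e-05). Its brightest probe set stood at 9.24, 9.50 and 9.02 in P cells, against 9.82 and 9.84 in untreated cells, a change of −0.58 (adjusted p = 0.0473). The same was seen in PSMD12, which encodes a lid subunit of the proteasome, where 1 probe set fell by 3.86 (SE 0.30, adjusted p = 3.02e-06), the smallest adjusted p of the comparison, and the brighter one by 0.74.

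The translation factor EIF1AX (−3.37 in 1 probe set, −0.41 in another) and the RNA-binding gene HNRNPD (−2.37 and 0.64) showed such gaps as well. PAFAH1B1, a regulator of dynein, was the only gene called in both directions, at −1.86 (adjusted p = 0.00228) and 1.03 (adjusted p = 0.00654). In PREPL, a peptidase, the gap was in a rise, with 2.60 (adjusted p = 7.82e-05) in a dim probe set and 0.02 in the brightest. In SPARC, a matrix protein, both probe sets were called and fell by 3.48 and 1.14. Which transcripts these probe sets read was not examined.

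**Figure D4:**
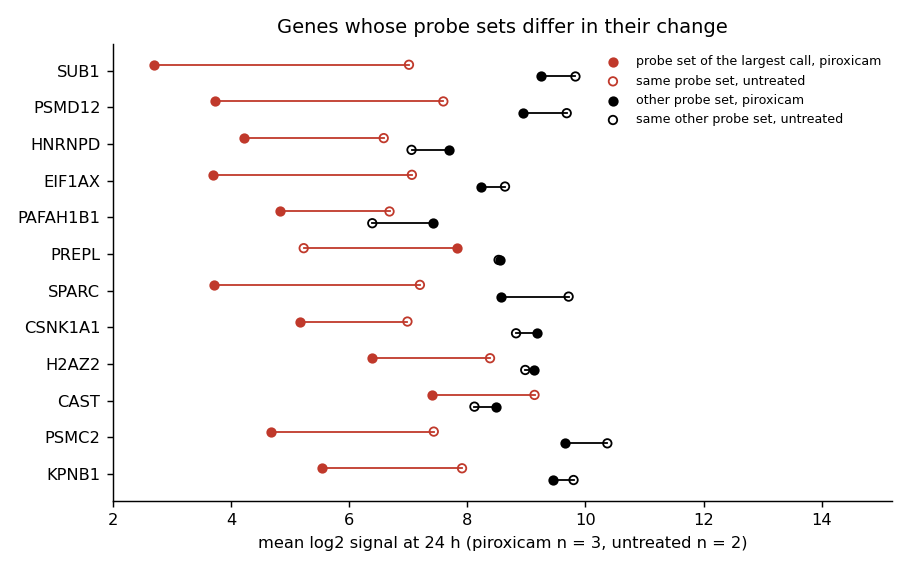
Mean log2 signal in P cells (filled) and untreated cells (open) for 12 genes in which a called probe set (red) and another tested probe set (black) differ most in their change. In SUB1 the called probe set lies at 2.69 in P cells and 7.01 in untreated cells, and the other at 9.25 and 9.83.

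The same probe sets were then looked up at 8 h, on 2 P and 2 untreated arrays that played no part in the 24 h contrast apart from the shared estimate of spread. At 8 h 15 probe sets were called (0.491%). Of the 96 probe sets called higher at 24 h, 90 were above 0 at 8 h (93.8%, against 46.2% of all tested), with a median log2 fold change of 0.50 at 8 h and 1.30 at 24 h, and 4 were called at 8 h. Of the 349 called lower, 308 were below 0 at 8 h (88.3%, against 53.8% of all tested), with medians of −0.38 and −1.33, and 5 were called. The integrated stress response factors had a median log2 fold change of 1.04 at 8 h and 1.15 at 24 h, and CEBPG was called at both times (1.68 and 1.67), while ATF5 was at −0.32 at 8 h and 1.15 at 24 h. These are fold changes over the untreated cells of each time, and the levels themselves differed, for TRIB3 a mean log2 signal of 7.67 in P cells at 8 h and 9.81 in P cells at 24 h. The replication and mitosis lists had medians of −0.18 and −0.19 at 8 h, as against −1.08 and −1.05 at 24 h.

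Whether the effect of P itself differed between the times was tested directly (24 h minus 8 h). A difference was called in 6 probe sets (0.196%), all with a negative sign. In all of them except DDIT4, described below, the 24 h change was a called fall and the 8 h change was smaller in size. At an unadjusted p under 0.05 there were 387. Of the 6, 3 read replication or kinetochore genes, the second probe set of MCM4 (difference −2.29), RFC5 (−1.91) and the kinetochore gene NSL1 (−2.06). The largest difference was in DDIT4, a stress-induced inhibitor of mTOR. It averaged 7.72 ± 0.01 in P cells and 2.57 ± 0.32 in untreated cells at 8 h (SD, n = 2 each), which gave 5.15 on the log2 scale (SE 0.46, adjusted p = 1.82e-05). At 24 h it stood at 8.58, 8.52 and 8.68 in P cells, against 8.39 and 6.65 in untreated cells (1.07, SE 0.42, adjusted p = 0.0639), so the level in P cells differed by under 1 between the times while the untreated level was far higher at 24 h. Other settings gave 0 to 49 such calls.

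**Figure D5:**
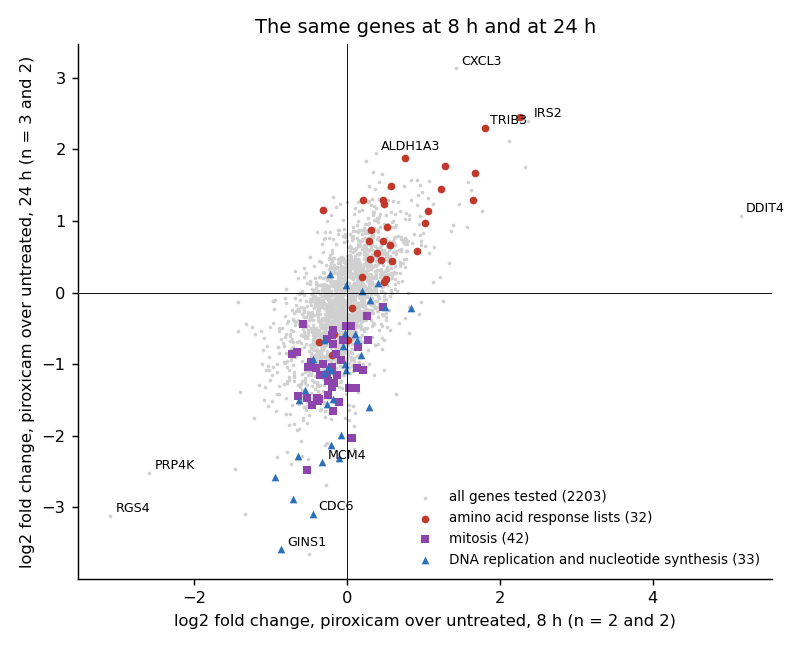
Log2 fold change of P over untreated cells at 8 h (x axis) and at 24 h (y axis) for the 2203 genes, with 3 groups of lists marked. Amino acid response genes lie mostly above 0 at both times, replication and mitosis genes spread around 0 at 8 h and lie mostly below it at 24 h, and DDIT4 stands alone at 5.15 at 8 h.

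Whether cisplatin shared these changes was tested by setting P against C at 24 h, which leaves the untreated arrays out but shares the P arrays with the comparison above. Of the tested probe sets 332 differed (10.9%), 98 higher and 234 lower in P cells. CXCL3 was higher in P than in C cells by 3.02 (adjusted p = 0.00143), ALDH1A3 by 2.29 (adjusted p = 0.0029), IRS2 by 2.28 (adjusted p = 0.00356) and TRIB3 by 2.25 (adjusted p = 0.0029). Lower in P than in C cells were CDC6 (−3.18, adjusted p = 0.000588), PLAT (−3.17, adjusted p = 0.00227), SRSF6 (−3.06, adjusted p = 0.00041) and GINS1 (−2.99, adjusted p = 0.000305). Of the 96 probe sets called higher in P than in untreated cells 32 were also called higher in P than in C cells. Among the other rises described above, the values for P against C were below 0 in ATF3 (−1.06, adjusted p = 0.333), GDF15 (−0.31, adjusted p = 0.689), KLF4 (−0.81, adjusted p = 0.266) and TXNIP (−0.12, adjusted p = 0.88), and above 0 without a call in CEBPG (0.95, adjusted p = 0.0156, short of the fold limit), SLC3A2 (0.75, adjusted p = 0.0468) and AARS1 (0.68, adjusted p = 0.0565), among others. A missing call does not show that the drugs act alike on these genes.

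By the same rule few probe sets were called between P/C and P cells, but the 2 P/C arrays resembled different treatments. Over the tested probe sets P/C replicate 1 correlated best with a C array (0.963) and P/C replicate 3 with a P array (0.955). A low count therefore does not show that adding cisplatin had a small effect. P/C differed from P in 5 probe sets (0.164%), all higher in P/C cells, and in 608 at an unadjusted p under 0.05. Each of the 5 had a negative log2 fold change of P over untreated cells, a contrast that shares the P arrays. MCM4 was at 7.87 and 6.54 in P/C cells, against 5.38, 5.52 and 5.68 in P cells (1.68, SE 0.30, adjusted p = 0.0453), and PCNA at 10.21 and 9.90 in P/C cells, against 8.63, 9.05 and 8.42 in P cells (1.35, SE 0.25, adjusted p = 0.0453). The others were FTSJ3, a factor of ribosome assembly (1.45), EI24, a protein of autophagy (1.27), and POLR2D, a subunit of RNA polymerase II (1.15). Single arrays set this count, which was 310 without P/C replicate 3, 0 without P replicate 1, P replicate 3 or P/C replicate 1, and 2 without P replicate 2. For CDKN1A the difference of 1.37 between P/C and P cells was not called (adjusted p = 0.159).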

How the data were processed

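RNA from MSTO-211H cells was read on HGU133A arrays. After probe-level checks the authors removed outlying arrays and summarised the rest with GCRMA (version not given in the sources used here), so the deposited values are log2 signals, corrected for background and normalized between arrays. They hold no counts, and the number of arrays limits the precision. The submitters' labels gave groups, doses and replicate numbers. From the deposited values 68 control probe sets were left out and a filter with the thresholds of the study's methods was applied and kept 10388 probe sets by interquartile range, of which 3057 also passed the signal limit and were tested; these are not the numbers that the methods state. A linear model with 8 group means was fitted to the 18 arrays in limma 3.58.1 (R 4.3.3; 10 residual and 5.76 prior degrees of freedom), two-sided, adjusted within each comparison over all tested probe sets. The fit was checked on simulated data.

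Gene names came from the platform annotation, where 19071 probe sets have 1 symbol, 1043 several and 2169 none (2750 of those tested have 1). Named genes were, by rule, the 12 largest rises and falls without overlap between groups, up to 5 called members of each of 33 lists (up to 3 of the brightest where few were called), the drug targets and CDKN1A, and up to 6 genes with disagreeing probe sets and 6 for each difference between effects. MSLN, CALB2 and CDH2 are named as markers outside that rule. Also outside it are BIRC5 and DLGAP5, named for the study's PCR, and PSMC2, named for a dim called probe set. Lists, members and tests were chosen with earlier results of these data known, so the lists are described by counts and medians without a set test. Of 1094 listed genes 137 were not on the array. Promoters came from RefSeq (GRCh38.p14) and were matched by symbol, for 1900 of the 2203 genes. The transcript of p53 is not reported here. Alternatives were the filter, 3 scalings, array weights, an intensity trend, the arrays in the fit, a replicate block and leaving out each array. Replicate numbers 1 and 2 are shared by P and untreated arrays at 24 h, with correlations of 0.39 and 0.29 between their deviations from the group means, too few pairs to treat the arrays as paired.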

Additional observations from a re-analysis of the deposited data

Results flagged for a closer look

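In 6 probe sets the effect of P differed between 24 h and 8 h by the test of the difference itself. The difference of the log2 fold changes (24 h minus 8 h) was −4.08 for DDIT4 (adjusted p = 0.0205), where the level in untreated cells averaged 7.52 at 24 h and 2.57 at 8 h. It was −3.55 for the dim probe set of SUB1 (adjusted p = 0.0478), whose brightest probe set had log2 fold changes of −0.58 at 24 h and −0.08 at 8 h. It was −2.51 for the called probe set of PSMD12 (adjusted p = 0.0478), which fell by 3.86 at 24 h and had a log2 fold change of −1.35 at 8 h. The replication gene MCM4 (−2.29, adjusted p = 0.0495), the kinetochore gene NSL1 (−2.06, adjusted p = 0.0478) and the clamp loader gene RFC5 (−1.91, adjusted p = 0.0478) completed the set. All 6 adjusted p values but that of DDIT4 lay close to the threshold. No group of the series had the 4 arrays that a test for a single outlying array needs.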

How the results depend on the processing

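All 445 probe sets called with P kept their direction in every setting in which they were tested, but the counts moved. Without the filter 783 were called (189 higher and 594 lower) and with a signal limit of 200 there were 282 (57 and 225). Quantile normalization gave 154 higher (60.8% of all calls lower, against 78.4% as reported) and centring on the tested probe sets 172 higher and 223 lower (56.5% lower). The median log2 fold change was 0.0287 without the filter, −0.0581 after quantile normalization and −0.0129 with that centring. Leaving out 1 array gave 250 to 467 calls, 19 to 135 higher and 231 to 384 lower, the lowest count without untreated replicate 2, and 186 probe sets were called in each of the 5 cases.

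The count for the difference between 24 h and 8 h was 0 without the filter, 1 after quantile normalization, with centring on the tested probe sets or with an intensity trend, 49 with only the arrays compared, 44 with array weights and 0 to 4 when 1 array was left out. P against C gave 617 calls without the filter and 190 at a limit of 200. P/C against P gave 0 without the filter, after quantile normalization, with centring on the tested probe sets, with only the arrays compared or with array weights, 25 at a limit of 200, 42 with an intensity trend and 0 to 310 when 1 array was left out.

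With the replicate number as a block, a pairing that the labels do not explain, 393 probe sets were called with P (79 higher and 314 lower), 2 for the difference between times, 344 for P against C and 58 for P/C against P. Of 120 named genes 12 lost their call under the block, among them ATF3, KLF4, SLC7A5, MT1X and PCNA.

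Reversals were confined, over these settings, to genes that were not called, apart from PAFAH1B1. After quantile normalization CDK4 was at 0.10. With centring on the tested probe sets CDK4 was at 0.17, NPM1 at 0.0613, IL1B at 0.089 and CD44 at 0.10, and with median centring PREPL was at −0.00641 and under the block at −0.0639. With the mean of a gene's probe sets CD44 was at 0.56 and PAFAH1B1 at −0.42. Leaving out 1 array gave ranges of −0.32 to 0.24 for CDK4, −0.00371 to 0.20 for CXCL8, −0.32 to 0.0771 for IL1B, −0.20 to 0.32 for LOXL2, −0.0432 to 0.58 for PLK2, −0.86 to 0.17 for KRT8 and −0.10 to 0.14 for PREPL. The causes were not tested.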
